A study of Homo sapiens with 6 samples.

Results

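Mitochondrial carriers are a family of small proteins, named SLC25A followed by a number, most of which sit in the inner mitochondrial membrane. Each exchanges or imports a defined kind of molecule, such as ADP for ATP, phosphate, citrate, amino acids, iron or coenzymes, and so links the chemistry of the matrix with that of the cytosol. The uncoupling proteins belong to the same family by sequence. The carriers were followed here through all probes of the array that the probe annotation assigns to a gene named SLC25A and a number, with SLC25A40 left out, and through those of UCP2 and UCP3. This gave 68 probes for 46 genes, of 47231 probes in all. The rule goes by gene names, and the family was taken up with earlier results of these data known.

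The probes were read in HeyA8-MDR cells, an ovarian cancer line (HeyA8) of human origin made resistant to several drugs. One group received an siRNA against GRAMD1B (siGRAMD1B, 3 arrays, numbered 2, 3 and 4), whose protein carries sterols from the plasma membrane to the endoplasmic reticulum. The other received a control siRNA (siControl, 3 arrays, numbered 1, 2 and 4). Total RNA was labelled with biotin and hybridised to Illumina bead arrays, and all values below are normalized log2 intensities unless another scale is named. Both groups are the same cell line, so every array carries the drug resistance. Dose, time after transfection and the number of cultures are not given in the sources used here, and p-values therefore cover the array-to-array spread alone, which could be technical. A lower value in a bulk sample cannot tell fewer cells of a kind from less RNA per cell.

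The median deposited intensity per array lay between 109.9 and 128.8 in siGRAMD1B and between 102.7 and 120.3 in siControl, and normalized arrays correlated with each other at r = 0.990 to 0.995 across probes. Precision is limited by how few arrays there are. Of the markers of the labelled ovarian carcinoma line, VIM (mean 14.62), CDH2 (12.49), KRT8 (11.26), KRT7 (10.67), PAX8 (10.19) and KRT18 (8.05) gave signal far above the median probe (6.23), whereas CDH1, KRT19, MUC16, MUC1 and EPCAM lay between 5.99 and 6.33 and WT1 at 6.84. All 4 leukocyte, all 5 fibroblast and both erythroid markers had means of at most 6.59, and of 4 endothelial markers only CDH5 (9.61) exceeded 6.31. Bright enough to be tested were 9 markers of the line, 3 leukocyte, 4 endothelial, 2 fibroblast and 1 erythroid marker, and ABCB1, the drug efflux pump gene. Of these, 3 passed the limma test by their brightest probe, where 9.47% of all genes did. CDH2 was lower (log2 difference -0.38, adjusted p = 0.023), and ABCB1 (0.59, adjusted p = 0.023) and VWF, near the floor (0.38, adjusted p = 0.033), were higher. The ABCB1 groups overlapped, and its second probe did not pass (0.41, adjusted p = 0.077). The part of these genes in the results below was not tested. The GRAMD1B probe read 6.26, 6.23 and 6.17 in siGRAMD1B, against 6.42, 6.41 and 6.57 in siControl, without overlap, and its log2 difference of -0.25 ± 0.10 (SE) missed the threshold over all probes (limma adjusted p = 0.15). This targeted probe was dim in both groups, at the 58.5th percentile of all probes by its mean.

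Of the 68 carrier probes, 59 passed the filter on dim probes (a mean above the 40th percentile of all probes, at 6.16) and were tested together with all other probes, 28338 in all. They covered 41 genes. The 9 probes below the filter were the only probes of SLC25A2, SLC25A31, SLC25A35, SLC25A41 and SLC25A53 (2 probes) and further probes of SLC25A25, SLC25A48 and UCP3. Of the tested carrier probes, 15 had means under 6.5, close to the floor, where the scale compresses differences. A probe's signal depends on its own sequence as well as on its transcript, so signals were compared between groups for the same probe and not between genes.

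Most carriers differed little between siGRAMD1B and siControl, and 5 genes passed the test. In all, 6 of 59 carrier probes were called, against 7.11% of all probes. At an adjusted p under 0.05 (limma with Benjamini-Hochberg adjustment over all 28338 probes), 4 of 59 carrier probes were higher in siGRAMD1B, against 3.89% of all probes tested, and 2 of 59 were lower, against 3.22% of all probes. The higher ones read the iron importer SLC25A37, the acylcarnitine carrier SLC25A20 (both of its probes) and the branched-chain amino acid carrier SLC25A44. The lower ones read SLC25A43, whose cargo is not established, and the pyrimidine nucleotide carrier SLC25A36. With each gene taken by its brightest probe, 5 of 41 carrier genes were called, against 9.47% of 14261 genes. Of these, 3 of 41 carrier genes were higher, against 5.72% of all genes, and 2 of 41 were lower, against 3.74%. With an ordinary test per probe in place of the moderated one, 0 carrier probes passed in either direction, and few of all 28338 probes did. The counts over all probes are given with the alternatives below. At an unadjusted p under 0.05 in that ordinary test, 5 carrier probes were higher and 2 lower, against 8.6% and 7.75% of all probes. In the moderated test 8 of 59 were higher at an unadjusted p under 0.05, against 2846 of all 28338 probes (10%), and 3 of 59 were lower, against 2713 (9.57%). With a background offset of 16 the calls over all probes numbered 455 higher and 235 lower, a share of 65.9% higher, against 1103 higher and 913 lower, a share of 54.7%, in the reported setting.

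The median log2 difference over the 59 carrier probes was 0.00046, against -0.0046 over all probes tested. Their quartiles were -0.10 and 0.08, against -0.11 and 0.10 for all probes, and 83.1% of them lay within 0.25 of 0, against 83.9% of all probes. Arrays of the groups did not overlap at 14 of 59 carrier probes, against 24.1% of all probes, with siGRAMD1B above at 9 (against 12.3%) and below at 5 (against 11.8%). By the brightest probe of each gene this was so for 9 of 41 carrier genes, against 28.4% of all genes. Spread between arrays was similar in both groups, with a median SD per carrier probe of 0.09 in siGRAMD1B and 0.11 in siControl. The plot of difference against signal shows the carriers within the cloud of all probes, with the 6 called ones farthest from 0.

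**Figure D1:**
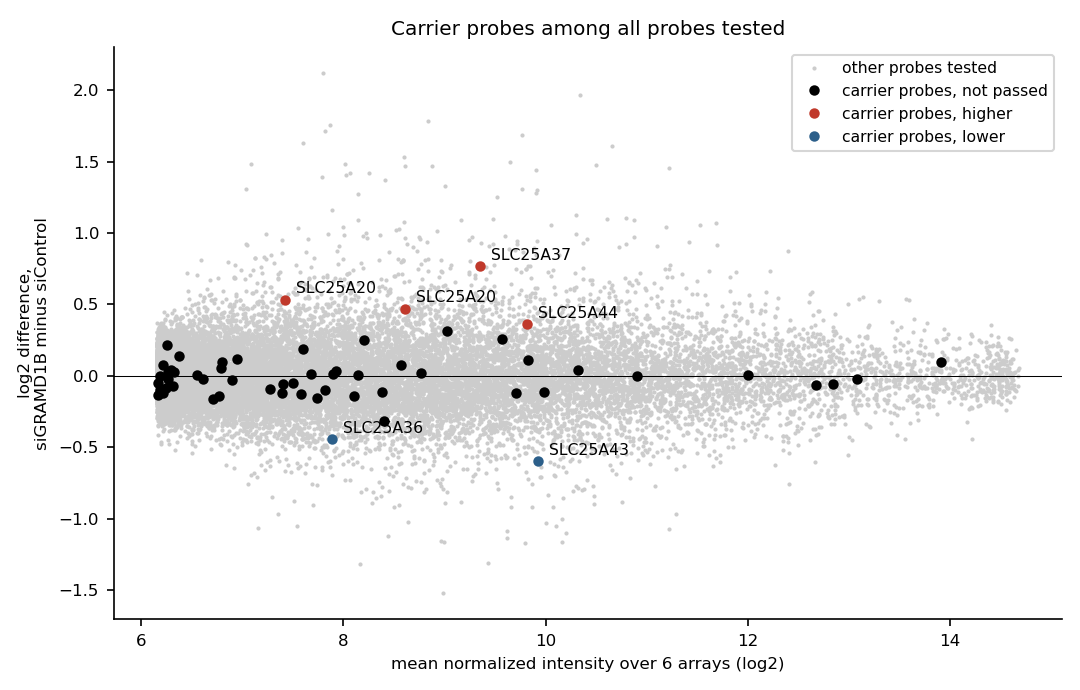
Log2 difference (siGRAMD1B minus siControl, vertical axis) against mean normalized log2 intensity over 6 arrays (horizontal axis) for all 28338 probes tested (grey) and the 59 carrier probes (black, not passed; red, higher; blue, lower). The called carrier probes lie between -0.60 and 0.77, and other probes reach from -1.52 to 2.12.

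The proximal promoters of the called genes are printed for 4 of them, to show the sequence upstream of their annotated starts. Whether their transcripts start there in these cells was not tested. SLC25A37, also called, was left out of the printed windows and of the motif counts over these 4. Each is the 250 bases before the gene's start in RefSeq (build GRCh38.p14), 5′ to 3′ on the gene's own strand. Capitals mark matches, on either strand, to 4 motifs found in promoters of nuclear genes for mitochondrial proteins and elsewhere: the core bound by nuclear respiratory factor 1 (GCGC, any base, then TGCGC), the ETS core bound by GABPA and its relatives (CCGGAAG), the GC box (GGGCGG) and the CCAAT box (CCAAT). SLC25A20 lies at chr3:48898883-48899132 on the minus strand, SLC25A44 at chr1:156193854-156194103, SLC25A43 at chrX:119399086-119399335 and SLC25A36 at chr3:140941586-140941835, all 3 on the plus strand.
SLC25A20: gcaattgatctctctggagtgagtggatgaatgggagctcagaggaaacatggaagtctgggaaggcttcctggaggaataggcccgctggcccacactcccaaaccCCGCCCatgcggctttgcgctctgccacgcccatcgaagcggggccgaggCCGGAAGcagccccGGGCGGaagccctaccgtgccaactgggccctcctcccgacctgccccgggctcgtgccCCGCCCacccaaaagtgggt
SLC25A44: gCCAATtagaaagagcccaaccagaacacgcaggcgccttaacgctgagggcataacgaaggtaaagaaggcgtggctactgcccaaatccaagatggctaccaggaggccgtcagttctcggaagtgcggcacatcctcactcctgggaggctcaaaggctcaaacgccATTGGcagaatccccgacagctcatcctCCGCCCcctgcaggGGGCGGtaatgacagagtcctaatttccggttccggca
SLC25A43: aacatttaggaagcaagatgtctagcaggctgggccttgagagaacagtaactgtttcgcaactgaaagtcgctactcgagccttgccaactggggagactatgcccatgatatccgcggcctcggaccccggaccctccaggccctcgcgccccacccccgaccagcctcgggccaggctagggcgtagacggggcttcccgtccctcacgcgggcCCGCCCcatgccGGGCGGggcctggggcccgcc
SLC25A36: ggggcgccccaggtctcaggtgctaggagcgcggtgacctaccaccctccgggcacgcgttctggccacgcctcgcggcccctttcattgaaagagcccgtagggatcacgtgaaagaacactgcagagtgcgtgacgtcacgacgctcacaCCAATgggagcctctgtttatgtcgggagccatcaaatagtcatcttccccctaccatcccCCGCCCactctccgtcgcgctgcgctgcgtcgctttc

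The SLC25A20 window held 3 GC boxes and 1 ETS core, and the SLC25A44 window 2 GC boxes and 2 CCAAT boxes. The window of SLC25A43 held 2 GC boxes, and that of SLC25A36 held 1 GC box and 1 CCAAT box. No match overlapped another, and the nuclear respiratory factor 1 core was in 0 of the 4 windows. RefSeq windows were matched for 39 of the 46 carrier genes, 50 windows in all. GC boxes were in 64% of them, against 42.6% of all 35116 windows of the same length, which include non-coding genes. CCAAT boxes were in 42% of carrier windows, against 32% of all, ETS cores in 20%, against 8.52%, and the nuclear respiratory factor 1 core in 8%, against 5.07%. These are counts of letters in a fixed window and were not tested.

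SLC25A37, or mitoferrin 1, brings iron into the matrix for haem and iron-sulfur cluster synthesis and is best known from red cell precursors. Its probe (ILMN_1715969) read 9.63, 9.94 and 9.65 in siGRAMD1B, against 8.72, 9.21 and 8.99 in siControl. All siGRAMD1B arrays lay above all siControl arrays, and the SD was larger in siControl (0.25) than in siGRAMD1B (0.18). The gene rose 1.70-fold (log2 difference 0.77 ± 0.12 SE, 95% interval 0.51 to 1.03, limma adjusted p = 0.00073). On the scale of deposited intensities, which are not normalized between arrays, the probe gave 849, 1155 and 734 in siGRAMD1B, against 401, 635 and 608 in siControl. The related mitoferrin 2 gene SLC25A28, which serves cells in general, read 9.67, 9.62 and 9.64 in siGRAMD1B, against 9.68, 10.02 and 9.60 in siControl. Its groups overlapped, and the siControl replicate 2 array stood above the other 5 (log2 difference -0.12, adjusted p = 0.63). The glutathione carrier gene SLC25A39 was level, at 12.03, 12.02 and 11.97 in siGRAMD1B, against 11.95, 12.04 and 12.01 in siControl (log2 difference 0.01, 95% interval -0.19 to 0.21, adjusted p = 0.98).

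SLC25A20 exchanges acylcarnitines for free carnitine and so passes long-chain fatty acids to oxidation in the matrix. Its brighter probe (ILMN_1741392) read 8.83, 8.82 and 8.90 in siGRAMD1B, against 8.53, 8.27 and 8.33 in siControl. The dimmer probe (ILMN_1667429) read, to 3 decimals, 7.764, 7.543 and 7.769 in siGRAMD1B, against 7.256, 7.223 and 6.997 in siControl. Neither probe's groups overlapped. The gene rose 1.39-fold by the first (log2 difference 0.47 ± 0.10 SE, adjusted p = 0.0078) and 1.45-fold by the second (log2 difference 0.53 ± 0.11 SE, adjusted p = 0.0046). It was the only carrier gene with 2 called probes, and the pair of estimates differed by less than 1 SE. With the background offset of 16 the brighter probe missed the threshold (log2 difference 0.52, adjusted p = 0.063) while the dimmer one passed (0.67, adjusted p = 0.041).

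**Figure D2:**
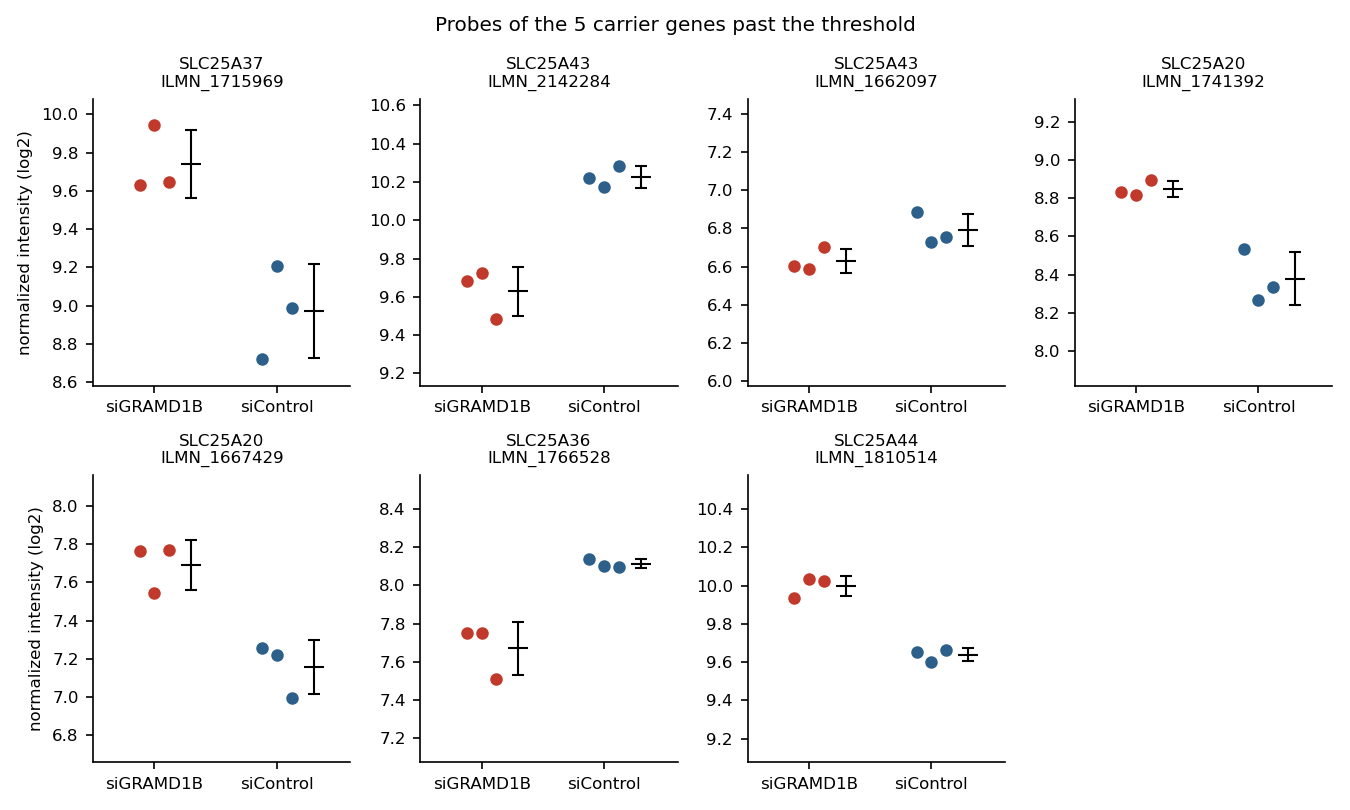
Normalized log2 intensity per array (dots) with the mean ± SD of 3 arrays (black) for all 7 probes of the 5 carrier genes past the threshold, siGRAMD1B in red and siControl in blue; every panel spans 1.5 log2 units. In each panel the groups do not overlap, also at the dim SLC25A43 probe, which did not pass the test.

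SLC25A43 has the mark of the family but no settled substrate. Its brighter probe (ILMN_2142284) read 9.68, 9.72 and 9.48 in siGRAMD1B, against 10.22, 10.17 and 10.29 in siControl. The siGRAMD1B arrays were all under the siControl arrays, by at least 0.45 between the nearest arrays. Expression fell to 0.661 of the siControl level (log2 difference -0.60 ± 0.10 SE, 95% interval -0.81 to -0.38, adjusted p = 0.0011). A dimmer probe (ILMN_1662097) read 6.60, 6.59 and 6.70 in siGRAMD1B, against 6.89, 6.73 and 6.75 in siControl. It too was without overlap in the same direction, but its log2 difference of -0.16 ± 0.10 (SE) did not pass (adjusted p = 0.41). Of the other carriers grouped with it for want of a stated substrate, SLC25A46, an outer membrane protein that affects mitochondrial shape, read 10.29, 10.38 and 10.34 in siGRAMD1B, against 10.33, 10.22 and 10.34 in siControl. The remaining tested genes of that group, SLC25A45, SLC25A47 and SLC25A48, had differences between 0.02 and 0.04 at their brightest probes, all near the floor, and a second SLC25A45 probe differed by -0.07.

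Carriers of nucleotides, cofactors and vitamins were represented by 9 tested genes, of which 1 was lower and 0 were higher, against 3.74% lower and 5.72% higher of all genes, with a median log2 difference of -0.05. SLC25A36, which moves pyrimidine nucleotides used for mitochondrial DNA and RNA, read 7.75, 7.75 and 7.51 in siGRAMD1B, against 8.14, 8.10 and 8.10 in siControl. The siControl arrays lay within 0.04 of each other and above every siGRAMD1B array. Its level fell to 0.736 of that in siControl (log2 difference -0.44 ± 0.10 SE, adjusted p = 0.012), and the call was lost without siGRAMD1B replicate 4 (log2 difference -0.36, adjusted p = 0.081). It was also lost with the background offset of 16 (adjusted p = 0.066), median centring (0.092) and the ordinary test per probe (0.12). The other pyrimidine nucleotide carrier, SLC25A33, was near the floor and differed by 0.00 (95% interval -0.24 to 0.25). SLC25A32, which supplies folate and FAD, had a log2 difference of -0.32 (adjusted p = 0.18), with overlapping groups. Without siControl replicate 2 the SLC25A32 probe passed as lower (log2 difference -0.47, adjusted p = 0.032).

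The NAD carrier gene SLC25A51 read 12.83, 12.90 and 12.70 in siGRAMD1B, against 12.86, 12.93 and 12.82 in siControl, with overlap (log2 difference -0.06, adjusted p = 0.81). A dimmer SLC25A51 probe differed by 0.12 (adjusted p = 0.63). SLC25A52, a close copy of SLC25A51, lay near the floor at a mean of 6.22 (log2 difference -0.12, adjusted p = 0.56), and whether its probe also binds SLC25A51 transcripts was not tested. The coenzyme A carrier gene SLC25A42 differed by 0.01 at its brighter probe and by 0.21 at a probe near the floor, where the groups did not overlap (adjusted p = 0.25). At their brightest probes, the S-adenosylmethionine carrier gene SLC25A26 differed by 0.03 and the peroxisomal carrier gene SLC25A17 by -0.05. For SLC25A16 the difference was -0.05 at its brighter probe and -0.12 at the other, without overlap (adjusted p = 0.54).

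Amino acid carriers comprised 8 tested genes, with 1 higher and 0 lower, against 5.72% and 3.74% of all genes, and a median log2 difference of 0.04. SLC25A44, which takes branched-chain amino acids into mitochondria and is known from brown fat, read 9.94, 10.03 and 10.02 in siGRAMD1B, against 9.65, 9.60 and 9.67 in siControl. Both groups were tight and did not overlap. The rise was 1.28-fold (log2 difference 0.36 ± 0.10 SE, adjusted p = 0.028), the smallest among the called carriers. The SLC25A44 call was lost when any siGRAMD1B array was left out (adjusted p = 0.060, 0.11 and 0.11 without replicates 2, 3 and 4) and when siControl replicate 1 (0.077) or siControl replicate 2 (0.076) was. Median centring (0.16), the background offset of 16 (0.12) and the ordinary test per probe (0.058) ended it as well, although its log2 difference stayed between 0.34 and 0.39 in all 16 alternatives.

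SLC25A13, or citrin, the aspartate and glutamate exchanger of the malate-aspartate shuttle, read 10.96, 10.98 and 10.76 in siGRAMD1B, against 10.87, 10.77 and 11.06 in siControl. Its groups overlapped and their means matched to 0.00 (95% interval -0.23 to 0.23). The paralog SLC25A12 had a log2 difference of -0.13 (adjusted p = 0.59). The ornithine carrier gene SLC25A15 read 9.79, 9.91 and 9.93 in siGRAMD1B, against 9.89, 9.67 and 9.73 in siControl, and its probes differed in sign (0.11 and -0.14, adjusted p = 0.62 and 0.48). SLC25A22, a glutamate carrier gene, differed by 0.08, and SLC25A38, which supplies glycine for haem synthesis, by -0.09. SLC25A29, a carrier of basic amino acids, gave 0.10 and -0.14 at its probes, and the second glutamate carrier gene SLC25A18 gave -0.05 near the floor.

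Among ADP/ATP carriers, which supply the cytosol with ATP made in the matrix, 0 of 2 tested genes passed in either direction, against 9.47% of all genes. At an unadjusted p under 0.05 (limma) 0 were higher and 0 lower, against 13.4% and 9.97% of all genes. SLC25A5, the form of proliferating cells, read 14.04, 13.83 and 14.01 in siGRAMD1B, against 13.88, 13.92 and 13.79 in siControl. The groups overlapped, and the log2 difference of 0.10 had a 95% interval of -0.11 to 0.31 (adjusted p = 0.66). SLC25A4, the form of heart and muscle, read 9.93, 9.88 and 9.96 in siGRAMD1B, against 10.10, 10.11 and 9.91 in siControl. Both SLC25A4 probes gave a log2 difference of -0.11 (adjusted p = 0.60 each). The germ cell form SLC25A31 stayed under the filter, with means of 6.16 in siGRAMD1B and 6.05 in siControl. SLC25A5 has close paralogs and pseudogenes, and cross-hybridisation of its probe was not tested.

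Carriers of phosphate and of ATP-Mg had 4 tested genes, of which 0 passed over all probes, against 9.47% of all genes. At an unadjusted p under 0.05 (limma) 2 were higher and 0 lower, against 13.4% and 9.97% of all genes. SLC25A3, the phosphate carrier that feeds ATP synthase, read 13.12, 13.05 and 13.03 in siGRAMD1B, against 12.99, 13.12 and 13.16 in siControl, with overlap (log2 difference -0.02, 95% interval -0.23 to 0.18). Its other probes, one annotated to the same transcript and a dim one annotated to another, differed by -0.06 and -0.03. SLC25A25, a calcium-regulated ATP-Mg/phosphate carrier, read 9.17, 9.13 and 9.25 in siGRAMD1B, against 8.78, 8.82 and 9.02 in siControl. The groups did not overlap, but the log2 difference of 0.31 ± 0.10 (SE) missed the threshold (adjusted p = 0.075). It passed in 5 of 16 alternatives, among them the authors' deposited normalized values (adjusted p = 0.032) and leaving out siControl replicate 4 (adjusted p = 0.032). Further, dimmer SLC25A25 probes differed by 0.06 and -0.09. The related SLC25A24 read 9.60, 9.64 and 9.85 in siGRAMD1B, against 9.50, 9.57 and 9.25 in siControl, again without overlap and without passing (log2 difference 0.26 ± 0.11 SE, adjusted p = 0.20). Its dimmer probes differed by -0.10 and -0.02, and SLC25A23 by 0.02.

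Carriers of di- and tricarboxylates had 5 tested genes, of which 0 passed over all probes, against 9.47% of all genes. At an unadjusted p under 0.05 (limma) 1 was higher, against 13.4% of all genes. That gene was SLC25A1, which exports citrate for fatty acid and sterol synthesis. Its probe read 8.31, 8.27 and 8.41 in siGRAMD1B, against 8.06, 8.23 and 7.95 in siControl, without overlap (log2 difference 0.25 ± 0.10 SE, adjusted p = 0.17). The oxoglutarate/malate carrier gene SLC25A11 differed by 0.01 (95% interval -0.19 to 0.22). SLC25A10, the dicarboxylate carrier gene, read 7.59, 7.64 and 7.75 in siGRAMD1B, against 8.22, 7.78 and 7.45 in siControl. Its siControl arrays lay on both sides of the siGRAMD1B arrays, and the gene missed the threshold (log2 difference -0.16 ± 0.14 SE, adjusted p = 0.62). SLC25A21 (0.14) and SLC25A34 (0.07) were near the floor.

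Of the uncoupling proteins and their nearest relatives, 4 genes were tested and 0 passed, against 9.47% of all genes. At an unadjusted p under 0.05 (limma) 0 were higher and 0 lower, against 13.4% and 9.97% of all genes. UCP2, the widely expressed member, read 7.61, 7.63 and 7.84 in siGRAMD1B, against 7.57, 7.44 and 7.53 in siControl. Its groups were apart by a small margin, and the log2 difference was 0.19 ± 0.10 (SE, adjusted p = 0.34). UCP3, known from skeletal muscle, and the relatives SLC25A27 and SLC25A30 lay between 6.19 and 6.28 and differed by -0.10, 0.03 and -0.0027.

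**Figure D3:**
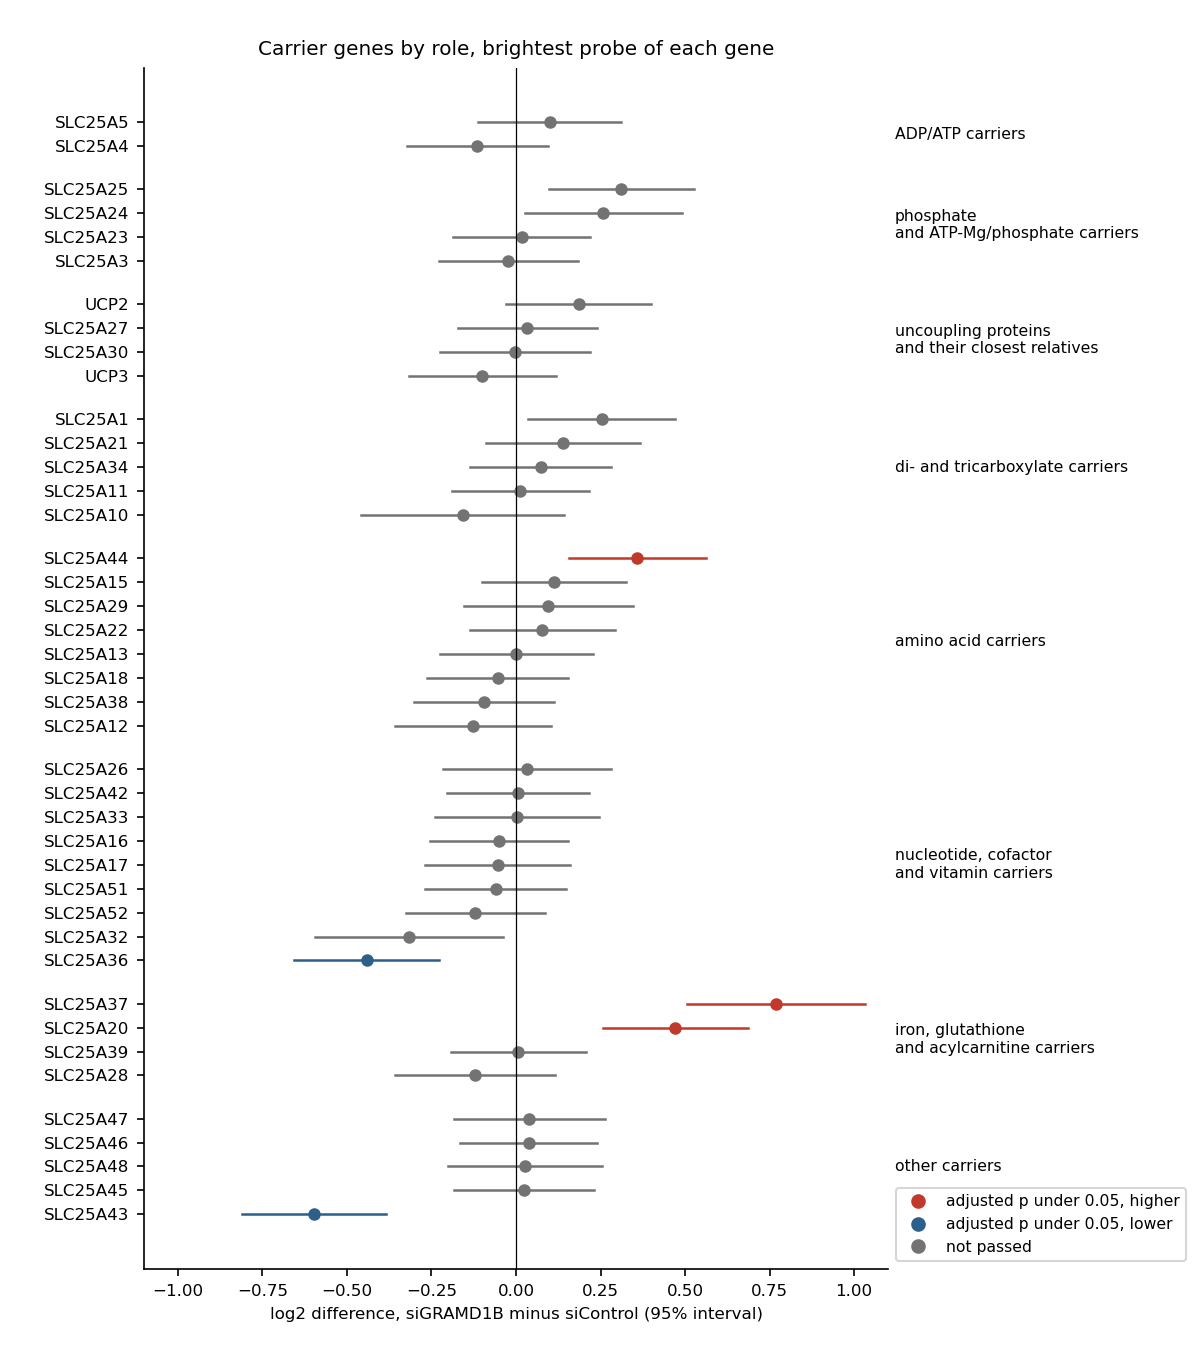
Log2 difference (siGRAMD1B minus siControl, horizontal axis) with its 95% interval for the brightest probe of each of the 41 tested carrier genes, in rows grouped by role. The 3 genes in red (SLC25A44, SLC25A37 and SLC25A20) and the 2 in blue (SLC25A36 and SLC25A43) passed the test, and 34 of the other 36 intervals lie inside ±0.5.

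Over all roles, 36 tested genes did not pass by their brightest probe. For 34 of them the 95% interval of the log2 difference lay within 0.5 of 0, a 1.41-fold change, and the exceptions were SLC25A25 (up to 0.52) and SLC25A32 (down to -0.59). These intervals bound the differences and do not show that levels were equal. Among 14 genes with 2 or more tested probes, the probes had the same sign in 7 and opposite signs in 7. In each of the genes with opposite signs no probe had passed.

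The genes that work beside the carriers were read from lists of partners, each gene by its brightest probe. Of all genes tested, 5.72% were higher and 3.74% lower, and no list was tested as a whole. Of 10 tested genes of acylcarnitine handling and fatty acid oxidation, 1 was higher and 0 were lower (median 0.05). The higher one was CPT2, the matrix enzyme that takes up acylcarnitines delivered by SLC25A20. CPT2 read 8.84, 8.71 and 8.72 in siGRAMD1B, against 8.22, 8.28 and 8.26 in siControl, without overlap (log2 difference 0.50 ± 0.10 SE, adjusted p = 0.0032). CPT1A, at the outer membrane end of the same route, was dim and differed by 0.08 (adjusted p = 0.76). Its other probes differed by -0.24 and 0.04 (adjusted p = 0.28 and 0.89). At an unadjusted p under 0.05 (limma) 2 genes of this list were higher and 1, ACADM, was lower (-0.24, adjusted p = 0.17). The shares of all genes were 13.4% and 9.97%. Of 11 tested genes of mitochondrial iron, haem and iron-sulfur clusters, 1 was higher and 0 were lower (median 0.06). It was ISCA1, an iron-sulfur assembly factor (log2 difference 0.46, adjusted p = 0.016), with a second probe at 0.23 (adjusted p = 0.24). At an unadjusted p under 0.05 (limma) 1 gene of this list was higher and 1 lower, against 13.4% and 9.97% of all genes. The lower one was LYRM4, without overlap (-0.32, adjusted p = 0.072). ALAS1 (0.05) and FECH (0.10), of the haem pathway, did not pass.

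Around the malate-aspartate and citrate shuttles, 1 of 11 genes was higher and 2 were lower (median -0.08). The lower ones were IDH1, the cytosolic isocitrate dehydrogenase (log2 difference -1.15 ± 0.10 SE, adjusted p = 1.3e-06, with a second probe at -0.91), and ME2, the mitochondrial malic enzyme (-0.42, adjusted p = 0.033). A second ME2 probe had overlapping groups and did not pass (-0.22, adjusted p = 0.27). The higher one was the cytosolic malic enzyme gene ME1 (0.49, adjusted p = 0.0063). In the machinery that imports carriers, 1 of 12 genes was higher and 0 were lower (median -0.07). That gene was TOMM22, the central receptor of the outer membrane translocase. It read 11.20, 11.20 and 11.48 in siGRAMD1B, against 10.72, 10.77 and 10.54 in siControl (log2 difference 0.62, adjusted p = 0.0016). TIMM9 and TIMM10, the chaperones of carriers between the membranes, differed by -0.36 (adjusted p = 0.062) and 0.12 (adjusted p = 0.61), and TIMM22, the inner membrane insertase, by -0.14. At an unadjusted p under 0.05 (limma) 1 import gene was higher and 4 were lower, against 13.4% and 9.97% of all genes. The lower ones were TIMM9, TOMM70 (-0.32, with overlap), TIMM10B (-0.23) and AGK (-0.21).

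Other channels and carriers of mitochondria showed 0 higher and 3 lower of 17 tested genes, against 5.72% and 3.74% of all genes (median -0.05). SFXN3 (-0.63, adjusted p = 0.00044) and SFXN1 (-0.58, adjusted p = 0.0027) belong to the sideroflexins, of which SFXN1 carries serine. VDAC2, a porin of the outer membrane, was lower at a dim probe (-0.48, adjusted p = 0.0066). A second probe of SFXN4 was lower (-0.38, adjusted p = 0.022), while its brighter probe differed by -0.15 (adjusted p = 0.48). Among regulators of mitochondrial content, 0 of 10 were higher and 1, the mitochondrial transcription factor gene TFB2M, was lower (-0.37, adjusted p = 0.024, with a second probe at -0.37 and 0.064), with a median of -0.14. At an unadjusted p under 0.05 (limma) 0 genes of this list were higher and 3 lower, against 13.4% and 9.97% of all genes. Besides TFB2M these were GABPA (-0.34, adjusted p = 0.069, without overlap) and TFB1M (-0.25, adjusted p = 0.23, with overlap). TFAM differed by -0.14 and PPARGC1A, near the floor, by 0.05.

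**Figure D4:**
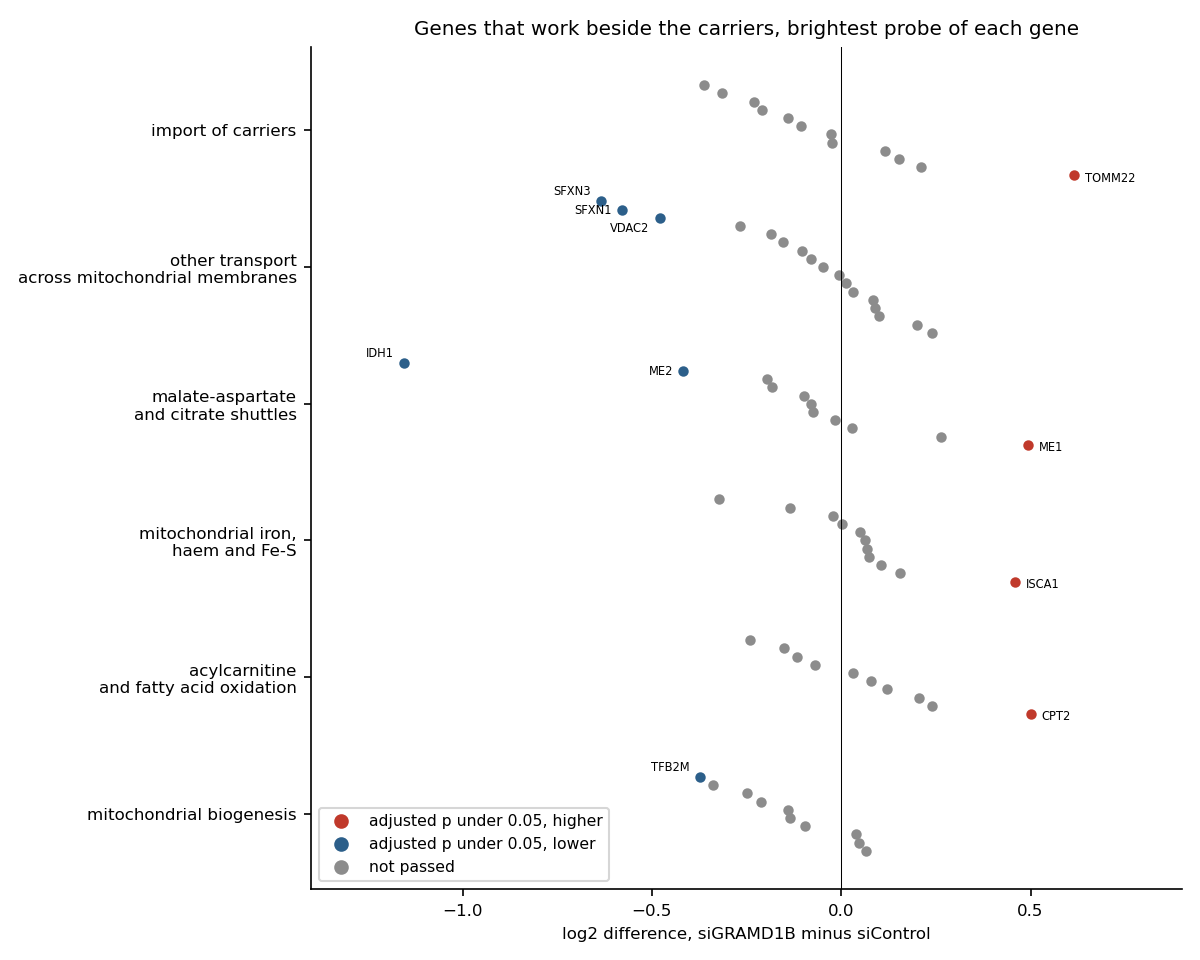
Log2 difference (siGRAMD1B minus siControl, horizontal axis) for the brightest probe of each tested gene in 6 lists of genes that work beside the carriers, with genes ordered by difference within a list. Genes past the threshold are named, 4 higher (red) and 6 lower (blue), and the rest are grey.

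**Figure D5:**
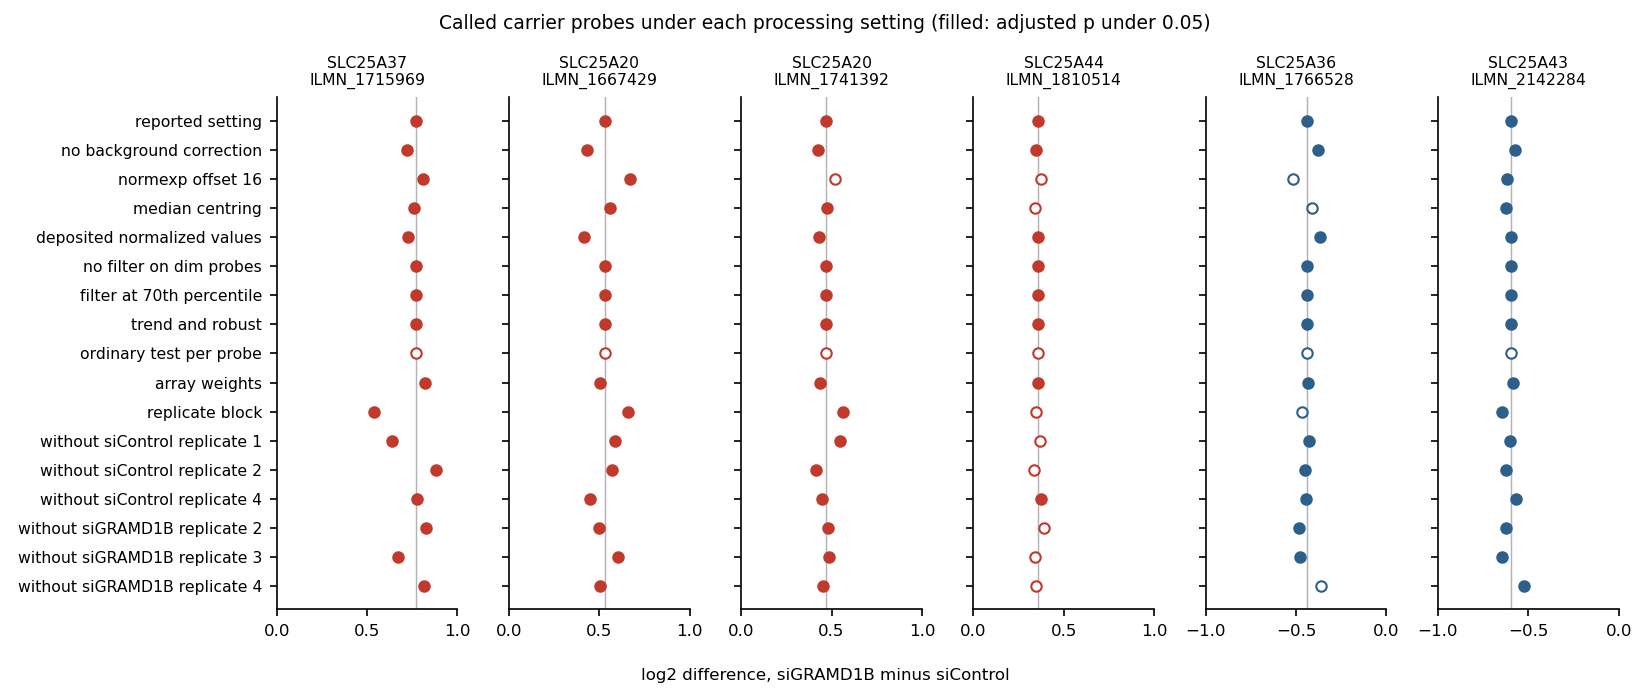
Log2 difference (siGRAMD1B minus siControl, horizontal axis) of the 6 called carrier probes under the reported setting and 16 alternatives (rows), with filled dots where the adjusted p was under 0.05. All dots stay on 1 side of 0, and SLC25A44 is open in 9 of 16 alternatives.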

How the data were processed

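Total RNA from the 6 samples was hybridised to Illumina bead arrays and read out with BeadStudio (named in the submitters' processing notes). The deposited intensity table is linear, and its values show no normalization between arrays. Its header holds 1 name too many, so array names were shifted back by 1 field, which the authors' second deposited table of log2 values, normalized by an unstated method, bore out (Spearman's rho 1.00 for the same array, at most 0.85 for others, across probes).

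Intensities were corrected with limma's normexp (version 3.58.1, R 4.3.3, offset 50), quantile normalized and put on log2, so fold changes of dim probes are understated. Probes with a mean above the 40th percentile were tested by lmFit and eBayes (2-sided, 17.9 degrees of freedom) with Benjamini-Hochberg adjustment at 0.05. Symbols came from the platform annotation (30113 probes with 1 symbol, 8 with several, 17110 unnamed here), and all 46 carrier genes were found in RefSeq (GRCh38.p14) under the same symbol. The test step was tried on simulated normalized arrays with known changes in bright probes. That did not cover background correction, normalization, changes at dim probes or differences as small as the smaller called ones. Groups came from sample titles, and 0 columns belonged to other samples.

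The members, lists and tests were chosen with earlier results of these data known. Per-array values are given for called carriers, all probes of their genes and the 12 carrier genes with the brightest probes, and for others where a result turned on them. Partner genes were named when past the threshold by their brightest probe, others as examples chosen after their values were seen. The design foresaw printing protein sequences, which were not used here, and promoters were printed instead. The 16 alternatives varied background, normalization, filter, moderation, weights, pairing and single arrays.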

Additional observations from a re-analysis of the deposited data

How the results depend on the processing

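Over 16 alternatives the 6 called carrier probes kept their sign in every one. SLC25A37, SLC25A43 and the dimmer SLC25A20 probe lost the call in 1 each (the ordinary test per probe, adjusted p = 0.16, 0.083 and 0.15), the brighter SLC25A20 probe in 2, SLC25A36 in 5 and SLC25A44 in 9, for both of them with the replicate block too (adjusted p = 0.059 and 0.26). Of 37 other carrier probes followed, 35 were never called, 2 (SLC25A25 and SLC25A32) were called in some, and 17 changed sign at differences that were not called. With the offset of 16, 2 carrier probes were higher and 1 lower, and over all probes 455 were higher and 235 lower. Median centring gave 1 lower carrier probe, and 603 higher and 419 lower over all probes. The ordinary test per probe gave 0 higher and 0 lower carrier probes, and 164 and 91 over all. Leaving out 1 array at a time gave 3 to 5 higher and 1 to 3 lower carrier probes, and 671 to 1157 higher and 450 to 1039 lower over all probes, with 1 lower carrier probe without siGRAMD1B replicate 4. Counts over all probes moved by over 1.5 times without siControl replicate 1 (731 higher, 476 lower) and without siGRAMD1B replicate 2 (687, 493), replicate 3 (705, 531) or replicate 4 (671, 450). The GRAMD1B difference ran from -0.43 (offset of 16) to -0.16 (deposited normalized values) and was called in none. At the filter on the 70th percentile the GRAMD1B probe was not tested. Replicate numbers 2 and 4 occur in both groups, but the labels do not say that they pair arrays, and deviations of same-numbered arrays correlated at 0.02 and -0.15. With the replicate block 3 carrier probes were higher and 1 lower, 574 and 411 over all probes, and the median carrier difference was -0.027, against 0.00046. That fit had 1 residual degree of freedom. The cause of these changes was not tested. Dim signal limits 15 carrier probes with means under 6.5.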

Other observations

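Relatives of the carriers that bear other names were read as well. MTCH1 and MTCH2, carrier-like proteins of the outer membrane, gave log2 differences of 0.01 (adjusted p = 0.97) and -0.27 (adjusted p = 0.12). MTCH2 read 7.13, 7.02 and 6.99 in siGRAMD1B, against 7.26, 7.29 and 7.39 in siControl, without overlap. UCP1, the uncoupling protein of brown fat, lay near the floor at means of 6.12 in siGRAMD1B and 6.23 in siControl. The pseudogene probes SLC25A3P1 (mean 5.98) and SLC25A51P4 (6.51) were dim as well. Both probes of the antisense transcript SLC25A21-AS1 were near the floor, at means of 6.27 and 6.15.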
